A study of Triticum turgidum with 12 samples.

Results

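The germin-like protein GLP2b and 3 secreted class III peroxidases of durum wheat flag leaves are followed here as 4 probe sets of the Affymetrix Wheat Genome Array, out of 61290 on the array. They are GLP2b (Ta.169.1.S1_x_at), peroxidase 10 (POX10, Ta.16980.1.S1_at), a probe set that the study names for both POX10 and PER12 (Ta.30028.1.S1_s_at), and a putative peroxidase that the study relates to the Arabidopsis gene AT4G31760 (TaAffx.613.2.A1_x_at). The 4 were taken from the study's lists of genes that differed between genotypes under control or responded to stress depending on genotype, and they were grouped as 3 that are lower under stress beside 1 that is higher. They were therefore chosen by their measured values on these same arrays, namely mutant against wild-type under control and water stress against control in both genotypes. Those differences are given below as a description, without a test. The comparison of mutant with wild-type under water stress was not itself a contrast of that choice, and it alone is tested for them. It uses the same stress arrays and follows from those contrasts, so its p-values are not independent of the choice.

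The wild-type (WT) was the durum wheat cultivar Borgia. The mutant (M) was its pale-green derivative MD-597, obtained by sodium azide mutagenesis, and the altered gene is not known, so there is no target transcript with which to check the genotype labels. Control plants were kept at the maximum water holding capacity of the soil, whereas stressed plants received less water from booting onwards (Zadoks stage 45, a point on a scale of cereal development). Flag leaves, the last leaves formed below the ear, were taken at anthesis. Each of the 4 groups (WT control, M control, WT water stress, M water stress) had 3 replicates, each a pool of leaves from several glasshouse plants, so the p-values reflect the spread between such pools.

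Germins and germin-like proteins are glycoproteins of the cell wall. Some, such as the germin of wheat and barley, are oxalate oxidases that release hydrogen peroxide, and several germin-like proteins of barley and rice have superoxide dismutase activity and are tied to resistance against powdery mildew or blast fungi. Class III peroxidases are secreted heme enzymes of plants that use hydrogen peroxide to couple phenolics, as in lignin formation and wall stiffening, and that can also generate reactive oxygen species. Both families act outside the plasma membrane, in contrast to the ascorbate peroxidases, which remove hydrogen peroxide in chloroplasts and cytosol.

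The sequences at hand for these 4 transcripts were the primers that the study designed to quantify GLP2b by real-time PCR. They are shown because they mark the part of the transcript that the study followed outside the array. Each is 25 bases long with a GC content of 48.0%, written 5′ to 3′ in lower case throughout.
GLP2b forward primer: ggtcagacccaccaatatcagatga
GLP2b reverse primer: aactcaaccgtgtccttcacttgtg

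All values are Affymetrix MAS5 intensities on a linear scale, scaled by the authors so that every array had a trimmed mean of 500.3. No detection calls were available. The median intensity of an array was 50.5 to 66.5, and only probe sets above the 60th percentile of each array (92.3 to 117.3) throughout the 3 replicates of some group were tested. This filter kept 24590 probe sets, among them all 4 studied here, each of which passed through the groups in which it was high. Differences are on the log2 scale with the standard error (SE) from a linear model in limma, and a call needed an adjusted p under 0.05 together with a 2-fold change. Because whole leaves were used, fewer cells of a type and less RNA per cell cannot be told apart. The 9 photosynthesis probe sets that mark leaf mesophyll were all kept, with a mean log2 intensity on each array between 10.18 and 11.88. They are a selection from the study's list of genes that responded to stress depending on genotype on these arrays. The early light-inducible protein of that list was left out. The study gives it the other direction, lower under stress in the wild-type and without a significant change in the mutant. The median difference of stress from control over these markers was 0.59 (log2) in WT and 1.53 in M, with 8 above 0 and 1 below 0 in each genotype. The marker below 0 was the Rubisco large subunit, at -0.24 ± 0.56 (log2, SE) in WT and -2.05 ± 0.56 in M. Since the study listed these markers as depending on genotype, no test of a difference between both stress responses is given for them. The 36 probe sets for spiked poly-A controls averaged 8.16 to 8.63 (log2) on control arrays and 8.59 to 9.47 on stress arrays, while hybridization controls covered 12.49 to 12.67 and 12.39 to 12.79. The ratio of the 3' to the 5' probe set of the spiked control dap was 6.56 to 8.60 on control arrays and 2.66 to 5.94 on stress arrays, without overlap, and that of the endogenous transcript G6PDH was 5.51 to 8.53 and 4.46 to 15.7. The part of these shifts in the stress differences below was not tested. The direction of each of the 8 stress differences was the same relative to the poly-A controls. That scaling shifts whole arrays and does not address the 3' to 5' ratios.

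GLP2b was the 1 of the 4 whose excess in the mutant was called under water stress. In the wild-type under control its intensities were 411, 467 and 332. In the mutant under control they were 1377, 941 and 2294. Every mutant array was above every wild-type array, and the mutant replicates spread more widely (SD of 0.64 on the log2 scale, n = 3) than the wild-type ones (0.25, n = 3). Under water stress the wild-type gave 25.4, 42.7 and 74.7 and the mutant 125, 102 and 162. The stressed wild-type arrays thus lay around the median of their arrays, and the stressed mutant arrays were again all above them.

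In log2 terms GLP2b was higher in the mutant by 1.85 ± 0.38 (SE) under control, a 3.60-fold difference. The difference of water stress from control was -3.21 ± 0.38 (log2, SE) in WT and -3.50 ± 0.38 in M, that is, 9.24-fold and 11.3-fold lower. The control and stress groups did not overlap in either genotype. The difference between both stress responses was -0.29 ± 0.54 (log2, SE), smaller than its error. With 32 added to each intensity, which damps values near the background, the stress differences became -2.49 in WT and -3.20 in M.

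**Figure D1:**
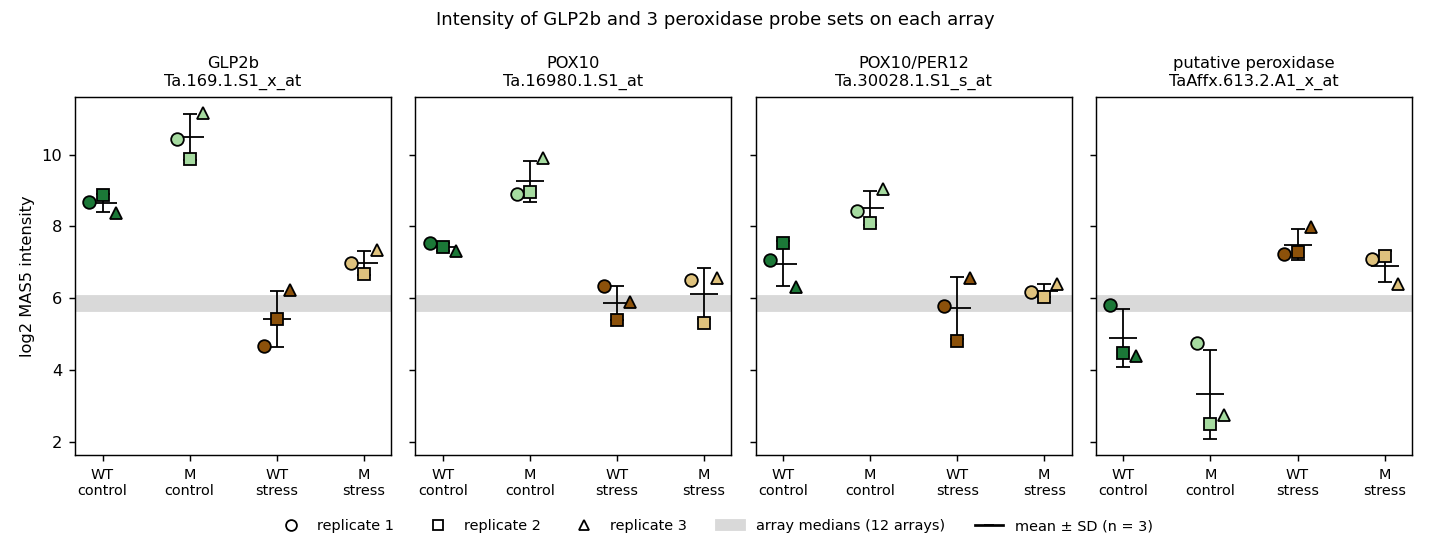
Log2 MAS5 intensity (vertical axis) of the 4 probe sets on each of the 12 arrays, by group; symbols are replicates, bars the mean ± SD of 3 arrays, and the grey band the range of array medians. GLP2b, POX10 and POX10/PER12 are highest in M control, whereas the putative peroxidase lies below the band in M control and above it in both stress groups.

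The mutant-to-wild-type difference of GLP2b under water stress was 1.56 ± 0.38 (log2, SE; 95% interval 0.73 to 2.39), or 2.95-fold, with all 3 mutant arrays above all 3 wild-type arrays. It just passed the test (limma, adjusted p = 0.0482 over all 24590 probe sets). GLP2b was 1 of 174 probe sets called in this comparison, a background of 0.708%, and 9.7% of all kept probe sets had every mutant array above every wild-type array. The direction was the same under every alternative processing tried, but the call was not: under the 9 settings other than leaving out single arrays the adjusted p was between 0.0510 and 0.602. Leaving out 1 array at a time gave log2 differences of 1.17 to 1.95 and adjusted p-values of 0.0379 to 0.158, and the call was lost without any 1 of the WT control arrays, WT water stress 1 or 2, M control 1, or any 1 of the M water stress arrays.

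POX10, a class III peroxidase, was also higher in the mutant under control, but in stressed leaves the values of both genotypes overlapped. Its intensities in wild-type control leaves were 184, 173 and 159, the narrowest spread of the 4 probe sets (log2 SD of 0.11, n = 3). In the mutant under control they were 476, 500 and 967. These groups did not overlap. Under water stress they were 81.6, 42.0 and 59.2 in the wild-type and 91.0, 39.6 and 95.4 in the mutant, interleaved around the array medians.

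The excess of POX10 in the mutant was thus 1.83 ± 0.38 (log2, SE) under control and 0.25 ± 0.38 under water stress (adjusted p = 0.788, limma; 95% interval -0.58 to 1.09). The interval leaves room for a difference of up to about the 2-fold threshold, and weighting the arrays by quality turned the sign (-0.40, adjusted p = 0.511). The difference of water stress from control was -1.55 ± 0.38 (log2, SE) in WT and -3.13 ± 0.38 in M. The difference between these responses was -1.58 ± 0.54 (log2, SE).

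The probe set named POX10/PER12 also had its highest values in mutant control leaves. Wild-type control leaves gave 135, 185 and 78.9 and mutant control leaves 347, 274 and 523. Under water stress the values were 55.2, 28.3 and 94.8 in the wild-type and 72.2, 66.2 and 84.5 in the mutant. The mutant was above the wild-type on every control array, whereas the stressed groups overlapped, and so did the control and stress groups of the wild-type. The probe set ID ends in _s_at, a type that can detect several transcripts of a family, so POX10 and PER12 cannot be separated here. The IDs of GLP2b and the putative peroxidase end in _x_at, a type whose probes can also match other sequences. Their signals need not come from a single transcript either.

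For POX10/PER12 the mutant was higher by 1.55 ± 0.44 (log2, SE) under control and by 0.48 ± 0.44 under water stress (adjusted p = 0.622, limma; 95% interval -0.47 to 1.43). The difference of water stress from control was -1.24 ± 0.44 (log2, SE) in WT and -2.31 ± 0.44 in M. The difference between these responses was -1.07 ± 0.62 (log2, SE).

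**Figure D2:**
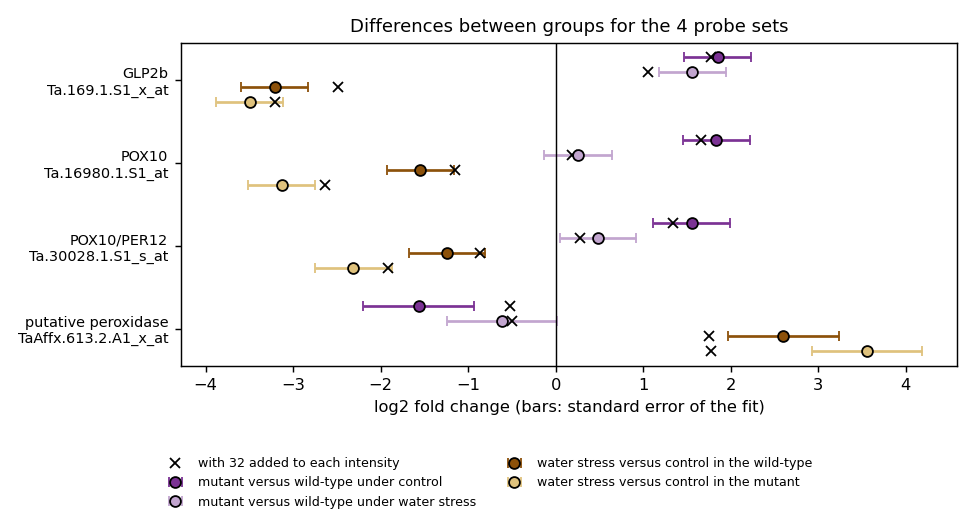
Log2 fold change (horizontal axis) of each probe set in the 4 comparisons of 2 groups; points are estimates over all 12 arrays, bars their standard error, and crosses the same difference with 32 added to each intensity. Under water stress the difference between genotypes is 1.56 for GLP2b, 0.25 for POX10 and 0.48 for POX10/PER12.

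The putative peroxidase TaAffx.613.2.A1_x_at ran the other way. In control leaves its intensities were 56.7, 22.4 and 20.9 in the wild-type and 27.0, 5.62 and 6.72 in the mutant, nearly all below the array medians. Under water stress they were 149, 156 and 252 in the wild-type and 136, 144 and 84.5 in the mutant. Both genotypes were higher on every stress array than on every control array, and under stress the 3 mutant values lay below the 3 wild-type values, as they did for 9.33% of all kept probe sets. The study, from values processed in another way, listed this probe set as higher under stress in the wild-type only. Here the log2 difference between stress and control was 2.60 ± 0.63 (SE) in WT and 3.55 ± 0.63 in M.

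The size of these changes is not firm, because the control values lie near the background of the array. With 32 added to each intensity they were 1.75 and 1.77 on the log2 scale, and the difference between genotypes in their stress response moved from 0.95 ± 0.89 (SE) to 0.024. Mutant and wild-type differed by -1.57 ± 0.63 (log2, SE) under control, where their arrays overlapped, and by -0.61 ± 0.63 under water stress (adjusted p = 0.671, limma; 95% interval -1.98 to 0.76). The probe set passed the filter only through WT water stress, a side of this comparison, so this p-value is a description.

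Of the other probe sets that share a cluster number with these 4, both belong to the putative peroxidase. TaAffx.613.2.A1_s_at, designed on the same sequence, was also dim in control leaves (5.77 to 38.0 in WT and 27.9 to 57.9 in M) and brighter under stress (207 to 438 and 101 to 323). Its log2 differences between stress and control were 3.96 ± 0.66 (SE) in WT and 2.35 ± 0.66 in M, so the genotype with the greater difference was not the same for both probe sets. Over the 12 arrays they correlated at r = 0.82, a description from shared arrays. TaAffx.613.1.A1_at stayed below the filter, with intensities of 2.68 to 44.5 on all arrays.

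Non-overlapping groups were common among all kept probe sets. Under control GLP2b, POX10 and POX10/PER12 had every mutant array above every wild-type array, as had 6.88% of all kept probe sets. Stress arrays lay wholly below control arrays for GLP2b and POX10 in both genotypes and for POX10/PER12 in the mutant, and so they did for 21.2% (WT) and 19.3% (M) of all probe sets. They lay wholly above for the putative peroxidase in both, and for 21.9% and 23.6% of all. Since the 4 were selected on those contrasts, nothing is read from these counts.

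Replicates of a group were not alike. Replicate 3 of the mutant under control had the highest value of its group for GLP2b, POX10 and POX10/PER12. It was also the highest for 10 of the 12 defense probe sets that the study names as induced in the mutant (chitinases, beta-glucanases, blufensin1, the acyltransferase ACT-1 and others), whose mean log2 intensity was 9.94 on that array beside 9.35 and 9.37 on the other two. Across all kept probe sets that array was the highest of its group for 30.5%. Other groups were uneven too: replicate 3 of the mutant under stress was highest for the same 3 and for 9 of the 12, and replicate 2 of the wild-type under control for 8 of the 12. Without replicate 3 of the mutant under control the excess of the mutant under control was 1.51 for GLP2b, 1.51 for POX10 and 1.30 for POX10/PER12 (log2), all still above 0.

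The same 12 defense probe sets, which the study also chose on these arrays, had a median difference between mutant and wild-type of 1.79 (log2) under control and 0.40 under water stress, beside -0.01 and 0.01 over all kept probe sets. All 12 were above 0 under control and 9 of 12 under stress, but none was called in either comparison. Under control the test called 0.0% of all probe sets (0 of 24590; 1300 had an unadjusted p under 0.05, array weights called 71 and the methods' t-test none). Between stress and control 6 of the 12 were called lower in WT (median -1.49; background 4.19%) and 11 in M (median -3.01; background 5.49%), and none higher (background 3.07% and 3.42%), with the control arrays shared with the contrast on which they were listed. In the genotype comparisons POX10 and POX10/PER12 had values close to the medians of the 12. GLP2b was close to the list median under control (1.85) but not under stress (1.56), where an adhesive/proline-rich protein of the list was at 1.37 ± 0.37 (log2, SE; adjusted p = 0.0711, limma), after 1.12 ± 0.37 under control.

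**Figure D3:**
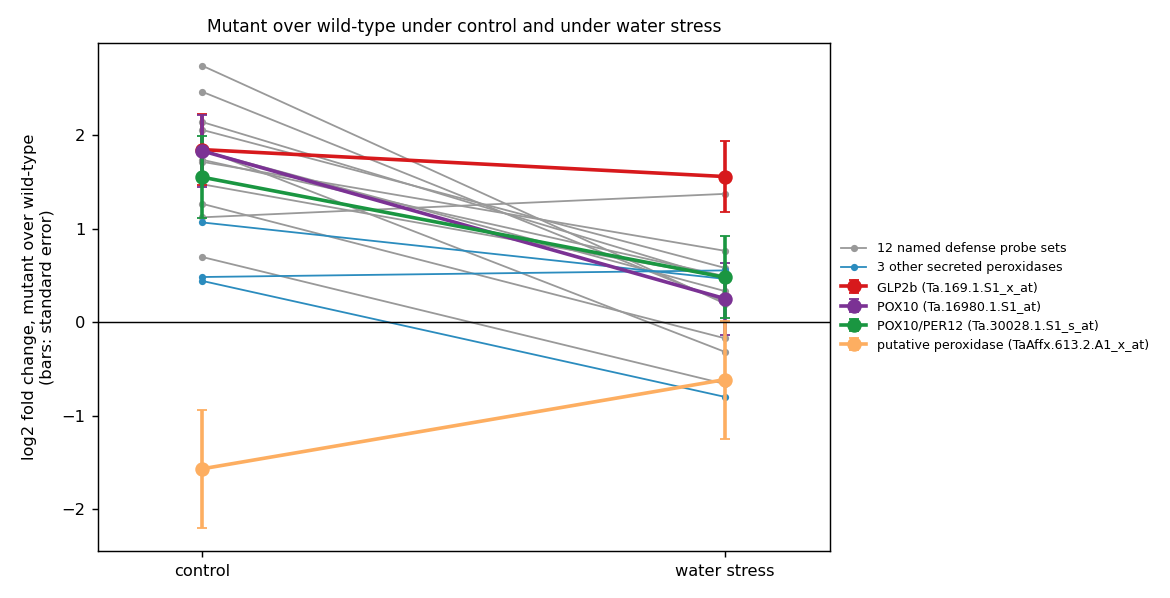
Log2 fold change of mutant over wild-type (vertical axis) under control and under water stress for the 4 probe sets (bars: standard error), the 12 named defense probe sets and 3 other secreted peroxidases. The lines of POX10 and POX10/PER12 drop towards 0 under water stress, to 0.25 and 0.48, whereas GLP2b stays at 1.56.

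Over the 12 arrays the 3 lower-under-stress probe sets had similar profiles. Pearson's r of log2 intensities was 0.92 for GLP2b with POX10, 0.92 for GLP2b with POX10/PER12 and 0.93 for POX10 with POX10/PER12. The putative peroxidase correlated at -0.88, -0.90 and -0.80 with them. These values describe arrays of 4 groups, and they largely restate the grouping by which the probe sets were chosen. After the group means were removed, r was 0.33, 0.64 and 0.51 among the first 3 and 0.13, -0.27 and 0.15 for the putative peroxidase with them.

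Among named probe sets the profile most like GLP2b was that of blufensin1, a small cysteine-rich peptide of cereals tied to powdery mildew (r = 0.96 over 12 arrays), followed by the adhesive/proline-rich protein (0.94) and a beta-glucanase (0.93). Blufensin1 was also the closest of all 24589 other kept probe sets to POX10 (r = 0.98), before an AT1G49570-like peroxidase (0.95) and chitinase 3 (0.95), an enzyme that degrades fungal walls. For POX10/PER12 the closest named were POX10, GLP2b and chitinase 3, each at about 0.93 or 0.92. Nothing named was as close to the putative peroxidase, for which a type 2 peroxiredoxin came first (r = 0.83), at rank 979 of all. The closest of all kept probe sets was one without a name for GLP2b (0.98), POX10/PER12 (0.97) and the putative peroxidase (0.97).

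The study's tables name 4 other putative peroxidases, called secreted here and not by the study. Of these, 3 passed the filter and the AT4G33420-like one did not. The study listed them for their response to stress in the mutant on these same arrays, so the values are a description. The log2 difference of stress from control in M was -1.59 ± 0.39 (SE) for the AT1G49570-like, -2.80 ± 0.80 for the AT5G58390-like and -0.83 ± 0.38 for the AT5G05340-like peroxidase. In WT these were -0.99 ± 0.39, -1.56 ± 0.80 and -0.90 ± 0.38. The differences between both responses were -0.60 ± 0.55, -1.24 ± 1.13 and 0.07 ± 0.54 (log2, SE). The median of the 3 was -0.99 (log2) in WT and -1.59 in M, beside 0.01 and 0.04 over all kept probe sets. None was called between genotypes in either treatment.

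Ascorbate peroxidases inside the cell gave another picture, and they too were listed by the study for their stress response on these arrays, so no test is given for it. In the mutant 3 of 4 probe sets were higher under stress than under control and 1 was lower. The 3 were both probe sets of the thylakoid enzyme TAPX (1.45 ± 0.20 and 1.67 ± 0.23 log2, SE) and APX4 (1.94 ± 0.49). The cytosolic APX1 was at -1.08 ± 0.23. The interaction of genotype and stress is the difference between both stress responses, and the study listed these probe sets as depending on genotype. It was 1.00 ± 0.28 and 1.01 ± 0.33 (log2, SE) for TAPX, 1.67 ± 0.69 for APX4 and -0.60 ± 0.33 for APX1. Whether the genotypes differ in these responses was not tested. The median of the 4 was 0.36 (log2) in WT and 1.56 in M.

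**Figure D4:**
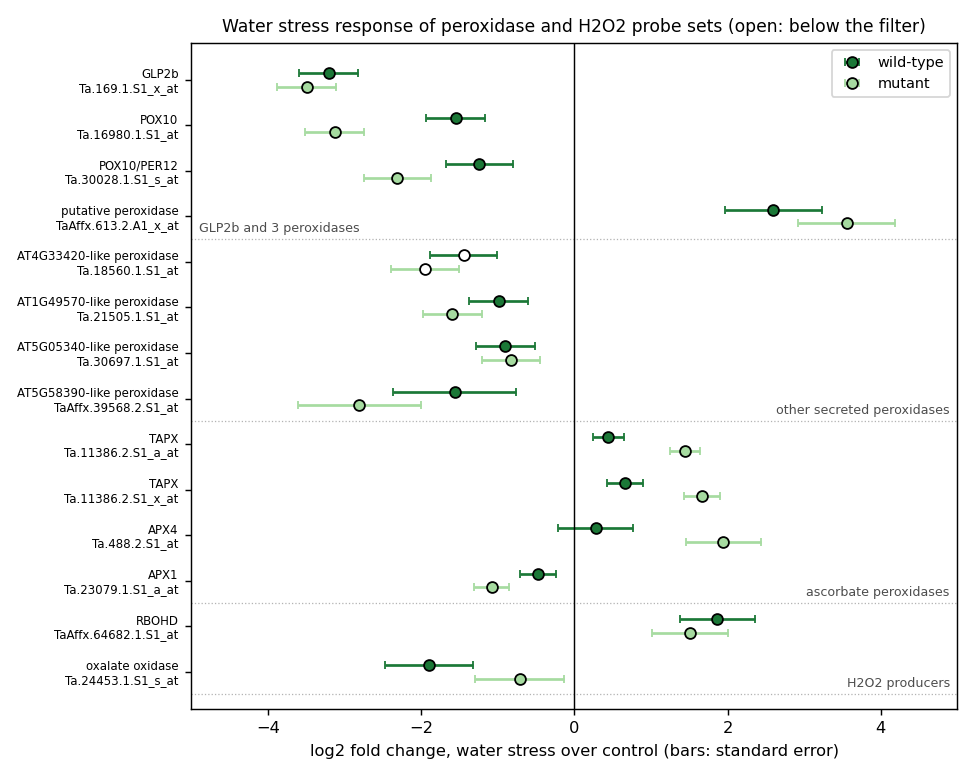
Log2 fold change of water stress over control (horizontal axis; bars: standard error) in the wild-type and the mutant for the 4 probe sets, the other secreted peroxidases, the ascorbate peroxidases and the hydrogen peroxide producers; open symbols are below the filter. All 4 other secreted peroxidases lie left of 0 in both genotypes, as GLP2b, POX10 and POX10/PER12 do, and the putative peroxidase lies at 2.60 and 3.55.

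Of the enzymes that produce hydrogen peroxide or its precursor, the study listed the NADPH oxidase RBOHD as higher under stress in the mutant only. In the values used here RBOHD was higher under stress by 1.87 ± 0.49 (log2, SE) in WT and 1.51 ± 0.49 in M. For an oxalate oxidase of the germin family the difference of stress from control was -1.90 ± 0.58 (log2, SE) in WT and -0.72 ± 0.58 in M. It passed the filter only through WT control, where it ranged from 129 to 358. The study's contrast had that same group high, so no test is given for it. Its difference between mutant and wild-type under control was -1.82 ± 0.58 (log2, SE), the contrast on which the study listed it, with no overlap of the arrays. Of 2 probe sets for the catalase CAT1, which removes hydrogen peroxide in peroxisomes, 1 was below the filter, with intensities of 4.87 to 121. The other was among the brightest of every array, with intensities of 33850 to 47580 and a lowest percentile of 99.77. It was not called in any comparison, and its largest difference between 2 groups was 0.26 ± 0.10 (log2, SE) under stress in the mutant (adjusted p = 0.0657, limma). Whether differences are compressed at such intensities was not tested. Of 9 further detoxification probe sets that the study listed for their stress response (glutathione transferases, glyoxalases, a peroxiredoxin and a glutaredoxin), 7 were below 0 under stress in each genotype, with medians of -0.59 (log2) in WT and -1.04 in M. The type 2 peroxiredoxin was above 0 in both, at 1.46 ± 0.14 (log2, SE) in WT and 0.94 ± 0.14 in M, and the glutaredoxin at 2.97 ± 0.75 and 0.07 ± 0.75. The difference between both responses was -0.51 ± 0.19 (log2, SE) for the peroxiredoxin and -2.89 ± 1.06 for the glutaredoxin. It was not tested, since the study listed both as depending on genotype.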

How the data were processed

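The deposited values are linear intensities that the authors made with Affymetrix MAS5 (per the submitters' processing notes, version not given in the sources used here), scaled to a 2% trimmed mean of 500.3 on each of 12 arrays. The methods describe RMA values with detection calls, which were not used here. After log2 transformation with no offset, 111 control probe sets were left out, and 24590 (40.2%) passed the filter given above. The means of the 4 groups were estimated in limma 3.58.1 (R 4.3.3) with an intensity trend, with Benjamini-Hochberg adjustment across all probe sets kept. The fit was first tested on simulated data in which 200 probe sets had known differences. The members, the gene lists and the naming rule (the 4 probe sets, those sharing a cluster number, the related lists and the closest profiles) were chosen with earlier results of these data known, and the lists come from the study's tables. CAT1 was added by its symbol in the platform annotation, which names no peroxidase or germin, so a list of those families could not be formed. Genome positions, transcript and protein sequences were not used here. The alternatives were quantile normalization, no filter, an offset of 32, no trend, fewer arrays, the methods' t-test (Welch), a replicate block, array weights, leaving out each array and, chosen after seeing the data, scaling to the poly-A controls. The number of arrays limits the precision.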

Additional observations from a re-analysis of the deposited data

How the results depend on the processing

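The difference of GLP2b between genotypes under water stress kept its direction but lost its call under quantile normalization (1.46, adjusted p = 0.0593, limma), no filter (1.56, 0.0730), 32 added (1.05, 0.0797), no trend (1.56, 0.0856), only the arrays compared (1.56, 0.247), the methods' t-test (1.56, 0.602), array weights (1.25, 0.0549) and scaling to the poly-A controls (1.58, 0.0822). The replicate block gave 1.56 (adjusted p = 0.0510). Over all kept probe sets the median correlation of deviations was -0.0158 for the same replicate number and 0.0232 for different ones. The study describes a split-plot layout, with water treatment in main plots and genotype in subplots. Whether the replicate numbers follow that layout is not stated, so these medians do not exclude a pairing. Leaving out 1 array gave 1.17 to 1.95. POX10 under stress turned to -0.40 with array weights, which also moved its stress difference in the mutant to -3.81 and its interaction to -2.34. With 32 added, GLP2b in the stressed wild-type was at -2.49, and the putative peroxidase at 1.75 (stress, wild-type), 1.77 (stress, mutant), -0.52 (genotype, control) and 0.024 (interaction). Relative to the poly-A controls the median of all probe sets moved by -0.71 under stress in WT and -0.51 in M. There GLP2b was at -3.92, POX10 at -2.26 and POX10/PER12 at -1.95 in the wild-type. Of 252 settings over the 12 described differences between 2 groups for the 4 probe sets, 244 moved by less than 1 SD and 8 by more, and none changed sign. The interactions were not among these, and that of GLP2b ran from -0.67 to 0.11 when single arrays were left out.

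The number of probe sets called between genotypes under control was 0, but 2 without the filter, 2 with 32 added, 53 with only the arrays compared, 71 with array weights, 9 relative to the poly-A controls and 0 to 12 without 1 array. Under stress it was 174, but 5 with only the arrays compared, 0 by the methods' t-test, 479 with array weights, 26 relative to the poly-A controls and 75 to 290 without 1 array. For stress against control it was 1787 in WT and 2191 in M, but 213 and 77 by the methods' t-test. Relative to the poly-A controls it was 6098 (267 higher, 5831 lower) and 3712 (272 higher, 3440 lower), against 756 higher and 1031 lower, and 841 higher and 1350 lower, with the authors' scaling. The causes were not tested. Intensities near the array median limit the putative peroxidase in control leaves and the other 3 probe sets in stressed leaves.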
